A study of Mus musculus with 6 samples.

Results

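The 9 genes described here encode the amyloid precursor protein, a close relative of it, and enzymes that cut the precursor or degrade the peptide released from it. They were App, Aplp2, Psen2, Bace1, Ncstn, Aph1a, Adam10, Adam17 and Ide, and their members in the data were all probe sets whose platform annotation gave exactly 1 gene symbol and that symbol was 1 of the 9. This rule found all 9 genes, of 18193 with such a probe set, by 32 probe sets among 34945 with 1 symbol and 45037 in all, control probe sets left out. The rule used gene names and no measured value, but the 9 genes were chosen with earlier results of these data known. RNA of primary mouse microglia was measured on 6 Affymetrix arrays, 3 Dap12-deficient and 3 wild-type, and the cells behind 1 array are called a culture here. The titles of 4 arrays carry a pair of joined numbers and those of 2 a single number, and the labels do not say whether joined numbers mark pooled cultures, so what each of the n = 3 stands for is not known. Dap12, encoded by Tyrobp, is a membrane adaptor of myeloid and natural killer cells that relays the signals of Trem2 and other receptors to Syk, a tyrosine kinase. The labels name no strain, sex, age or treatment and do not say how the deficiency was made. Nor do they say whether cultures of a group shared animals, and p-values therefore cover only the spread of these cultures, which may be partly technical. The design asks which transcripts differ when microglia lack the adaptor.

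The amyloid precursor protein is a membrane protein that is cut in alternative ways. Cleavage by an alpha-secretase, chiefly Adam10 with Adam17 as a stimulated activity, falls within the amyloid beta sequence and releases a soluble ectodomain. Cleavage by the beta-secretase Bace1 followed by gamma-secretase, a complex of a presenilin (such as Psen2) with nicastrin (Ncstn), an Aph1 protein and Psenen, releases amyloid beta. Insulin-degrading enzyme (Ide) is among the proteases that break the peptide down, and microglia are the brain macrophages that surround its deposits. Adam17 also releases tumour necrosis factor from the cell surface, and both Adam10 and Adam17 can shed Trem2.

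The targeted gene Tyrobp separated the groups, with wild-type signals of 5396 to 7271 and Dap12-deficient signals of 96.2 to 125 (log2 difference -5.64, limma adjusted p = 8.14e-07). The sources used here do not place its probes relative to the altered part of the gene. The median signal of an array lay between 11.9 and 14.0 for wild-type and between 14.5 and 16.4 for Dap12-deficient cultures. All 9 microglia markers with a tested probe set gave signal on each array, among them Csf1r from 5439 to 9522, Aif1 from 1611 to 2681 and C1qa from 3083 to 6149. Their mean log2 signal was lower in Dap12-deficient cultures for 8 of the 9 and higher for 1 (median log2 difference -0.29), and none passed the limma test. Signals summed over 8 oligodendrocyte markers ran from 5547 to 8941 for wild-type and from 1480 to 6761 for Dap12-deficient cultures. All 8 genes were lower on average (median log2 difference -1.47), with their arrays overlapping. At an unadjusted limma p under 0.05 all 8 were counted lower, against 4.87% of all genes, and none passed after adjustment. Mbp, the brightest of them, gave 5535, 3839 and 5283 in wild-type, against 4714, 1142 and 358 in Dap12-deficient cultures. For 8 astrocyte markers the sums ran from 505 to 940 and from 451 to 1408, with 7 genes higher and 1 lower (median log2 difference 0.40). For 9 neuron markers they ran from 451 to 539 and from 321 to 439, with 3 genes higher and 6 lower (median -0.35). At an unadjusted limma p under 0.05, 2 astrocyte markers were counted higher and 1 lower. By the same count 2 neuron markers were lower and 0 higher. Over all genes the shares were 4.76% higher and 4.87% lower, and no marker of either list passed after adjustment. The signal of the 3' over the 5' control probe set of Gapdh, which rises as RNA or its copies shorten, was 3.29, 3.39 and 3.21 in wild-type, against 3.58, 3.09 and 2.52 in Dap12-deficient cultures. For beta-actin it was 2.46, 3.38 and 3.94 against 3.20, 2.40 and 1.81. In RNA of whole cultures, fewer cells of a type and less RNA per cell cannot be told apart, and the part of other cell types or of RNA length in the results below was not tested.

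None of the 9 genes had a probe set past the threshold. Of the 32 probe sets, 26 had a mean signal of at least 8.51, the 40th percentile of all probe sets, and were tested with limma on log2(signal + 16), a scale that understates differences of dim probe sets. With a Benjamini-Hochberg adjusted p under 0.05 over all 27022 tested probe sets, 0 of the 26 passed, against 0.0074% of all tested probe sets (2 of them). At an unadjusted p under 0.05, 3 of the 26 (11.5%) were counted, against 10.7% of all tested, and all 3 were higher in Dap12-deficient cultures, where the share over all tested probe sets was 7.05%. No member was counted in the lower direction, where the share over all was 3.61%. Groups whose arrays did not overlap were seen for 3 of the 26, all higher, against 9.6% of all tested probe sets that lay higher without overlap and 6.89% that lay lower. These shares are near the background. Of the 26, 18 had a log2 difference above 0 and 8 below (53.4% of all tested lay above 0), with a median of 0.16 against 0.03 over all tested probe sets. With each array scaled to a common median the split turned to 9 above and 17 below, and the median became -0.09 for the members and -0.16 over all tested probe sets. Without Dap12-deficient array 1 the split was 13 above and 13 below, with a median of -0.002 for the members and 0.03 over all. The median absolute difference was 0.20 for the members and 0.20 over all, and the median standard error 0.23 and 0.22. Leaving out Dap12-deficient array 2 raised the count over all probe sets from 2 to 172 and leaving out Dap12-deficient array 1 raised it to 15, and 0 members passed in either case.

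**Figure D1:**
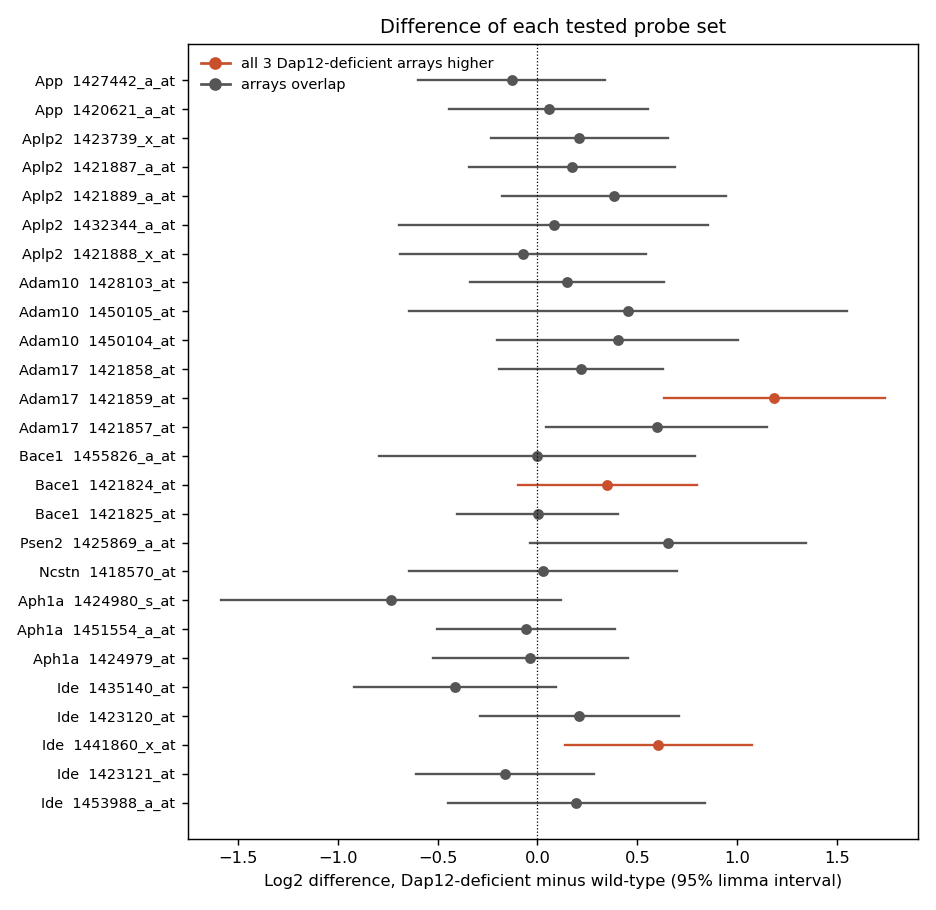
Log2 difference (Dap12-deficient minus wild-type, horizontal axis) of the 26 tested probe sets, grouped by gene, with the 95% interval of the limma fit. Orange marks the 3 probe sets whose arrays did not overlap, and the interval lies above 0 for Adam17 1421859_at, Adam17 1421857_at and Ide 1441860_x_at.

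App, the precursor itself, passed the test in neither of its tested probe sets. Its brightest probe set, 1427442_a_at, gave 1739, 1160 and 1837 in wild-type cultures 1, 2 and 3, against 1431, 1530 and 1290 in Dap12-deficient cultures 1, 2 and 3. All 3 Dap12-deficient arrays lay inside the wild-type range, which was set by the low wild-type array 2. Means were 1579 ± 366 (SD, n = 3) and 1417 ± 121 (SD, n = 3), a log2 difference of -0.13 with a 95% interval from -0.60 to 0.34 (limma adjusted p = 0.855). It was -0.33 without wild-type array 2, -0.007 without wild-type array 3 and -0.38 with arrays scaled to a common median. The second tested set, 1420621_a_at, gave 357, 300 and 376 against 482, 292 and 321, with Dap12-deficient array 1 highest and array 2 lowest. Its log2 difference was 0.06 (interval -0.44 to 0.56), and it turned to -0.15 without Dap12-deficient array 1. Both App sets had a correlation of 0.31 over the 6 arrays, so they did not rank the arrays alike. The remaining App sets, 1438374_x_at and 1438373_at, were under the filter, with signals from 0.54 to 6.17 and from 0.47 to 4.60.

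The 250 bases before the annotated start of App are shown because this gene encodes the precursor itself. Promoter sequences were taken from RefSeq in the build GRCm38.p6 and matched 8 of the 9 genes by symbol. They are written 5' to 3' on the strand of the gene, here the minus strand at chr16:85173708-85173957, and capitals mark matches to the GC box (GGGCGG or CCGCCC), the CCAAT box (CCAAT or ATTGG) and the TATA box (TATAAA or TTTATA), none of which overlaps another in the sequences printed here.
App: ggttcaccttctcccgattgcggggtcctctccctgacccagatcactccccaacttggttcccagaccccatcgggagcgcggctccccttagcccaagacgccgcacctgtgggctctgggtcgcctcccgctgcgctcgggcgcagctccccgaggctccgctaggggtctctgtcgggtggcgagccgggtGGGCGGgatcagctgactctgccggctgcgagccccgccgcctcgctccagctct
This stretch holds 1 GC box, no CCAAT box and no TATA box, and 70.8% of its bases are G or C, against a median of 52.4% over 32851 promoter entries. Over all entries, 32.7% hold a GC box, 33.8% a CCAAT box and 12.4% a TATA box in the same length. A match is only a match of letters.

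The patterns most like App over the 6 arrays were those of Ing2, Cdc42bpb and Dipk2a. By the brightest tested probe set of each gene, Pearson's r with App 1427442_a_at was 0.986, 0.984 and 0.984. Ing2 encodes a chromatin reader and Cdc42bpb a kinase bound by Cdc42. With 6 arrays and 12875 genes, 10 genes had r above 0.95, and these values are a description of these arrays.

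Aplp2, the App relative that is also cut by the secretases but holds no amyloid beta sequence, had 5 tested probe sets. The brightest, 1423739_x_at, gave 1141, 1336 and 1126 in wild-type, against 1168, 1745 and 1309 in Dap12-deficient cultures. Dap12-deficient array 2 was the highest and the other two lay within the wild-type range, so the groups overlapped. The log2 difference was 0.21 (interval -0.23 to 0.65, limma adjusted p = 0.736), 0.046 without Dap12-deficient array 2, and -0.042 with arrays scaled to a common median. Set 1421889_a_at had the largest difference of the 5, with signals of 156, 257 and 146 against 282, 266 and 186. Its log2 difference was 0.38 (interval -0.18 to 0.94, limma adjusted p = 0.617), with wild-type array 2 above Dap12-deficient array 3. The other sets, 1421887_a_at, 1432344_a_at and 1421888_x_at, had 0.17, 0.08 and -0.07. Of the 5 sets, 4 lay above 0 and 1 below, and only 1 of those 4 stayed above 0 with a common median. Wild-type array 3 stood out on 1432344_a_at at 162, against 44.0 to 86.7 on the other 5 arrays, and without it the difference of that set was 0.56.

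**Figure D2:**
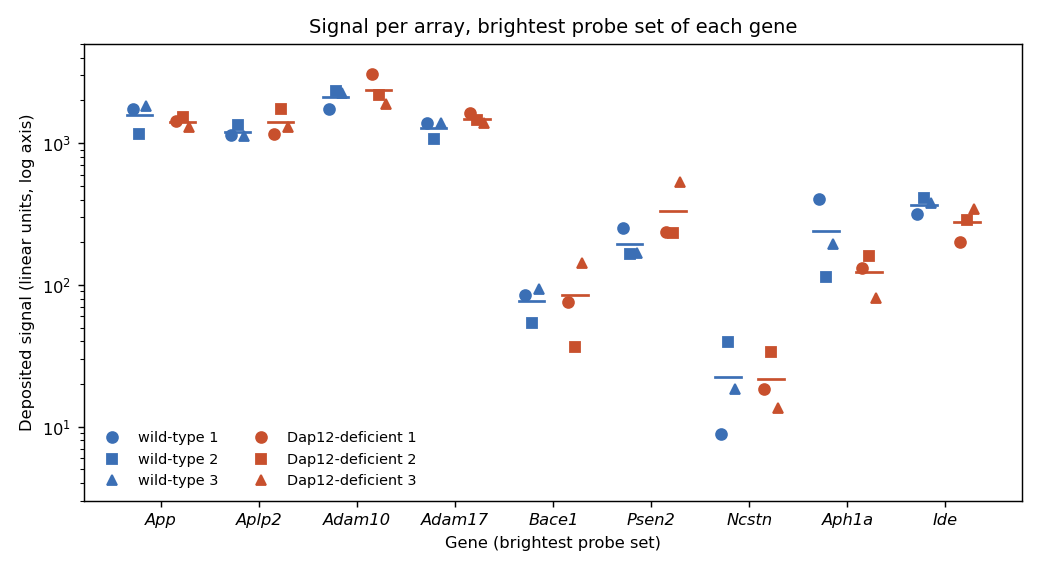
Deposited signal on each of the 6 arrays (log axis) for the brightest probe set of each gene, wild-type in blue and Dap12-deficient in orange, with bars at group means; heights of different genes cannot be compared because probe sets bind with different strength. Blue and orange points overlap for all 9 genes, and Psen2 on Dap12-deficient array 3 (534) and Aph1a on wild-type array 1 (406) stand apart from the rest.

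Adam17, the protease that sheds tumour necrosis factor, had the member probe set with the smallest p, but its 3 sets differed in size. Set 1421859_at gave 92.6, 141 and 85.0 in wild-type cultures 1, 2 and 3, against 346, 236 and 206 in Dap12-deficient cultures 1, 2 and 3. Every Dap12-deficient array lay above every wild-type array. Means were 106 ± 30.2 (SD, n = 3) and 263 ± 73.7 (SD, n = 3), a ratio of 2.48 and a log2 difference of 1.19 (SE 0.25, interval 0.63 to 1.74). By its unadjusted p it ranked 63 among 27022 probe sets, and the limma adjusted p was 0.279. Leaving out single arrays moved the adjusted p between 0.0937 (without Dap12-deficient array 2) and 0.693 (without wild-type array 1), and the difference between 0.98 and 1.38. Set 1421857_at, dimmer, gave 33.3, 63.9 and 44.7 against 107, 71.9 and 60.4. Here Dap12-deficient array 3 lay below wild-type array 2, which gave 0.60 on the log2 scale (SE 0.25, limma adjusted p = 0.442). The brightest set, 1421858_at, gave 1395, 1076 and 1376 against 1638, 1444 and 1382, so that the lowest Dap12-deficient array lay below wild-type array 1. Its log2 difference was 0.22 (interval -0.19 to 0.63, limma adjusted p = 0.693), and -0.03 with arrays scaled to a common median, while the other sets stayed above 0.

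All 3 Adam17 sets carry the same source accession in the annotation, and their positions along the transcript are not given here. Over the 6 arrays the correlation was 0.93 between 1421859_at and 1421857_at and 0.34 between 1421857_at and 1421858_at. The bright set thus had a highest signal 1.52 times its lowest, against 4.07 times for 1421859_at and 3.21 times for 1421857_at. The 250 bases before the start of Adam17 are shown because the member with the smallest p belongs to this gene (chr12:21373633-21373882, minus strand, capitals as above).
Adam17: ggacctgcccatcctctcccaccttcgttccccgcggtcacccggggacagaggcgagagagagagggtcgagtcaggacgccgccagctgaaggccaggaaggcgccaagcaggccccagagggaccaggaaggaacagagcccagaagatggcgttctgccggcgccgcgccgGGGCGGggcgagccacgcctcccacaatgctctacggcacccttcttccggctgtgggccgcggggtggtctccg
This stretch holds 1 GC box, no CCAAT box and no TATA box, with 70.4% G or C.

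Adam10, the main constitutive alpha-secretase, was highest on Dap12-deficient array 1 in each tested probe set. Its brightest set, 1428103_at, gave 1736, 2333 and 2272 in wild-type, against 3055, 2180 and 1882 in Dap12-deficient cultures, a log2 difference of 0.15 (interval -0.34 to 0.63, limma adjusted p = 0.838). Set 1450105_at gave 88.4, 233 and 233 against 559, 204 and 116. Dap12-deficient arrays 2 and 3 lay within the wild-type range and array 1 lay above all others. The log2 difference was 0.45 (interval -0.64 to 1.55, limma adjusted p = 0.770). Set 1450104_at gave 19.8, 20.4 and 28.3 against 62.9, 29.7 and 20.9, a difference of 0.40 (SE 0.27). Without Dap12-deficient array 1 these 3 differences became -0.05, -0.13 and 0.09, and with a common median the first was -0.11. The 3 sets ranked the arrays much alike, with correlations between 0.87 and 0.998 over the 6 arrays. The remaining set, 1460083_at, was under the filter, with 0.87, 1.72 and 1.18 against 3.23, 10.7 and 2.18.

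Dap12-deficient array 1 held the highest signal for 13 of the 26 tested member probe sets (50%), and for 24.5% of all tested probe sets. This array also had the highest median signal of the 6, at 16.4, and the highest Gapdh 3' over 5' value, 3.58, while its beta-actin value of 3.20 lay below those of wild-type arrays 2 and 3. Wild-type array 1 held the lowest signal for 9 of the 26, and the same share over all tested probe sets was not computed.

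**Figure D3:**
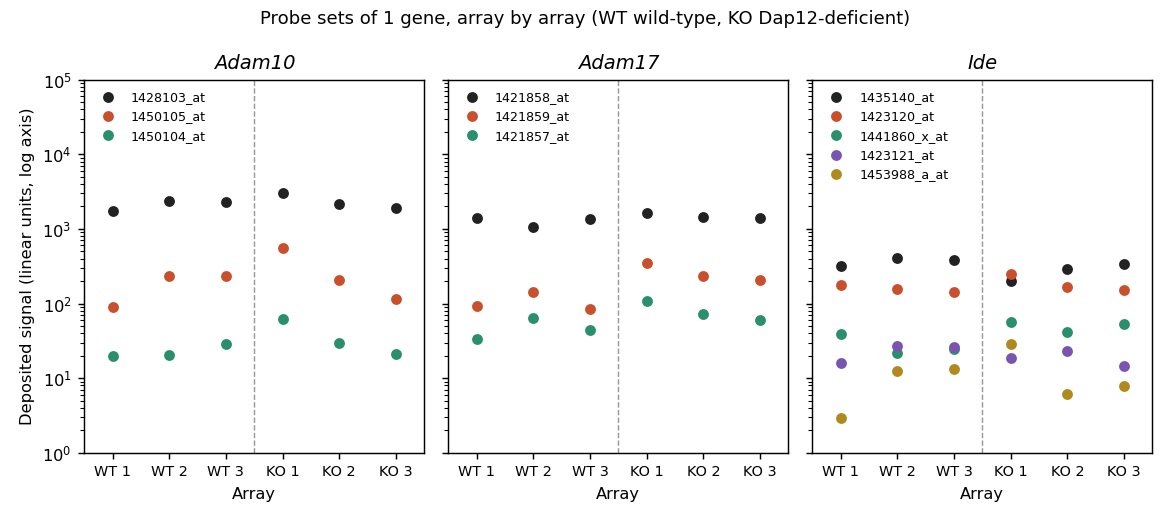
Deposited signal (log axis) of every tested probe set of Adam10, Adam17 and Ide on each array, wild-type (WT) left and Dap12-deficient (KO) right of the dashed line; colours mark probe sets of 1 gene. The Adam10 sets peak together on Dap12-deficient array 1, Adam17 1421859_at lies above its wild-type values on all 3 Dap12-deficient arrays, and the Ide sets do not move together.

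Bace1, the beta-secretase, was dim and its probe sets did not rank the arrays alike. Set 1455826_a_at gave 84.8, 53.6 and 94.0 in wild-type, against 75.9, 36.4 and 143 in Dap12-deficient cultures. Dap12-deficient arrays 2 and 3 were the lowest and the highest of all 6, and the log2 difference was -0.003 (interval -0.80 to 0.79, limma adjusted p = 0.998). Set 1421824_at gave 20.6, 31.6 and 33.2 against 48.7, 34.8 and 37.9. Here all Dap12-deficient arrays lay above all wild-type arrays, by a narrow margin between 33.2 and 34.8, with a difference of 0.35 (interval -0.10 to 0.80, limma adjusted p = 0.569). Set 1421825_at gave 14.3 to 19.8 against 15.0 to 20.7, a difference of 0.001 (interval -0.40 to 0.40). Pairs of these sets had correlations between 0.01 and 0.12. The set 1450384_at, at 1.45 to 8.20, was under the filter.

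Among the gamma-secretase genes, Psen2, the presenilin with the catalytic aspartates, had the largest positive difference. Its tested set 1425869_a_at gave 250, 165 and 169 in wild-type, against 237, 233 and 534 in Dap12-deficient cultures. The mean of 335 ± 173 (SD, n = 3) against 195 ± 47.9 (SD, n = 3) rested on Dap12-deficient array 3, since both other arrays lay below wild-type array 1. The log2 difference was 0.65 (interval -0.04 to 1.34, limma adjusted p = 0.496) with all arrays and 0.28 without Dap12-deficient array 3. The other Psen2 set, 1431542_at, was under the filter, with 5.20, 17.3 and 9.26 against 6.35, 8.53 and 2.90.

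Aph1a, a scaffold subunit of the complex, had 3 tested sets, all with a log2 difference below 0 as deposited. Set 1424980_s_at, of a type that can bind transcripts of more than 1 gene, gave 406, 114 and 195 in wild-type, against 133, 159 and 81.4 in Dap12-deficient cultures. Wild-type arrays 1 and 3 were the highest, but wild-type array 2 lay below Dap12-deficient arrays 1 and 2, and the difference of -0.73 (interval -1.58 to 0.12, limma adjusted p = 0.533) became -0.28 without wild-type array 1. Set 1451554_a_at gave 142, 133 and 117 against 136, 101 and 140, a difference of -0.06 (interval -0.50 to 0.39). Set 1424979_at gave 28.9, 53.2 and 32.4 against 36.5, 29.4 and 42.5, a difference of -0.04 (interval -0.52 to 0.45). Both of these turned positive when Dap12-deficient array 2 was left out.

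Ncstn, which encodes nicastrin, the large glycoprotein subunit, was dim on every array. Set 1418570_at gave 8.87, 39.7 and 18.3 in wild-type, against 18.3, 33.6 and 13.6 in Dap12-deficient cultures, so that both groups were spread more than they differed. The log2 difference was 0.03 (interval -0.64 to 0.70, limma adjusted p = 0.984). Set 1444532_at was under the filter, with 0.30 to 2.01 against 0.65 to 8.95.

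Ide, the zinc protease that degrades insulin and amyloid beta, had 5 tested sets that lay on both sides of 0. Its brightest set, 1435140_at, gave 314, 409 and 379 in wild-type, against 200, 288 and 341 in Dap12-deficient cultures. Dap12-deficient arrays 1 and 2 lay below all wild-type arrays and array 3 above wild-type array 1, with a log2 difference of -0.41 (interval -0.92 to 0.09, limma adjusted p = 0.554). It was -0.21 without Dap12-deficient array 1 and -0.65 with a common median (limma adjusted p = 0.760 and 0.298). The next set, 1423120_at, gave 175, 158 and 142 against 252, 167 and 150, a difference of 0.21 (interval -0.29 to 0.71) that became 0.003 without Dap12-deficient array 1 and -0.02 with a common median. These brightest sets ran opposite over the 6 arrays, with a correlation of -0.92. Set 1441860_x_at, of a type that can bind unrelated transcripts too, gave 38.8, 21.7 and 24.3 against 57.3, 41.8 and 53.1. All Dap12-deficient arrays lay above all wild-type arrays, with means of 28.3 ± 9.22 (SD, n = 3) and 50.7 ± 8.05 (SD, n = 3) and a difference of 0.60 (SE 0.21, limma adjusted p = 0.371). Sets 1423121_at and 1453988_a_at were dim, with signals from 14.5 to 27.0 and from 2.93 to 29.0 over the 6 arrays. Their differences were -0.16 (interval -0.61 to 0.28) and 0.19 (interval -0.45 to 0.84), with overlapping groups.

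The other genes of the pathway were read from 7 lists with 64 genes, of which 4 had no probe set with a single symbol and were not analysed here, and 2 were under the filter. By the brightest tested probe set, 0 of the 58 tested genes passed in limma, against 0.0155% of 12875 genes. Of the 58, 24 were higher and 34 lower in Dap12-deficient cultures (45.2% of all genes were higher), with a median of -0.06 against -0.03 over all genes. At an unadjusted p under 0.05, 4 were higher and 6 lower, where 4.76% and 4.87% of all genes were. Arrays did not overlap for 4 genes higher and 4 lower, against 7.54% and 8.85% of all genes. In each list the genes with the smallest p are given below as values.

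**Figure D4:**
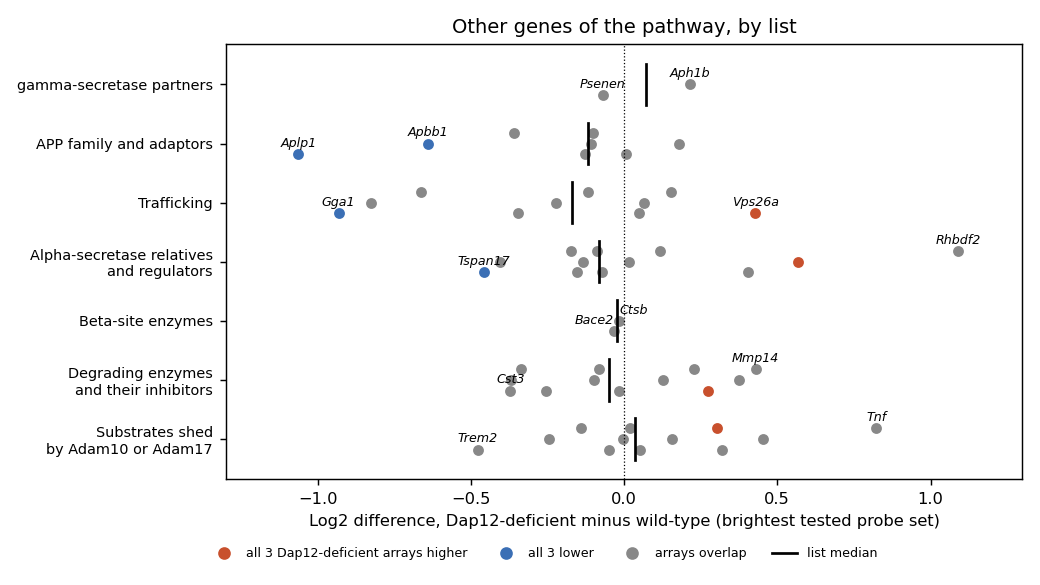
Log2 difference (Dap12-deficient minus wild-type) of the 58 tested genes of 7 pathway lists, 1 point per gene by its brightest tested probe set, with black bars at list medians and colours for genes whose arrays did not overlap. List medians lie between -0.17 and 0.07, and Aplp1 and Gga1 lie farthest to the left and Rhbdf2 farthest to the right.

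In the list of App relatives and adaptors, 2 of 8 tested genes were higher and 6 lower, with a median of -0.12. Aplp1, the App relative found mainly in neurons, gave 123, 87.2 and 93.5 in wild-type, against 64.3, 28.4 and 32.4 in Dap12-deficient cultures on its set 1435857_s_at. All Dap12-deficient arrays lay below all wild-type arrays, with a difference of -1.06 on the log2 scale (SE 0.25, limma adjusted p = 0.293). Set 1435857_s_at is of a type that can bind transcripts of more than 1 gene. A dimmer set, 1416134_at, gave 26.3, 8.02 and 20.1 against 26.7, 3.55 and 8.32 and a difference of -0.29, with overlapping groups. Aplp1 lies on chromosome 7 only 3 places from Tyrobp in the order of protein-coding genes, with 2 genes between. Neuron markers had a median log2 difference of -0.35, with 3 genes higher and 6 lower. Of these, 2 were lower at an unadjusted limma p under 0.05, against 4.87% of all genes. Oligodendrocyte markers had a median of -1.47, with all 8 genes lower. The part of gene position or of either cell type in the Aplp1 difference was not tested. Apbb1, which encodes the adaptor Fe65 that binds the tail of the precursor, gave 68.0, 61.1 and 57.1 against 33.2, 39.6 and 29.9 on 1423893_x_at. On this set, of a type that can bind unrelated transcripts too, the Apbb1 difference was -0.64 (SE 0.19, limma adjusted p = 0.335). It was -0.17 on the other Apbb1 set, where the groups overlapped. The 250 bases before the start of Aplp1 are shown because of this gene's place beside Tyrobp (chr7:30445583-30445832, minus strand, capitals as above).
Aplp1: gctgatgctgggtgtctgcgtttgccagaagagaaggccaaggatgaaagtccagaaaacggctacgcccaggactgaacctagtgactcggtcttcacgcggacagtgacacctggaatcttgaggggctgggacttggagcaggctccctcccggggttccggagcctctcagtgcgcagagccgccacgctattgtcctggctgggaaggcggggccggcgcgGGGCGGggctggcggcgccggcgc
This stretch holds 1 GC box, no CCAAT box and no TATA box, with 66% G or C.

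The gamma-secretase partners had 2 tested genes. Psenen, the smallest subunit, lies 11 places from Tyrobp on chromosome 7, and gave 2091, 1877 and 1358 in wild-type, against 1264, 1870 and 1947 in Dap12-deficient cultures, a log2 difference of -0.07 (interval -0.58 to 0.44). Aph1b, the alternative to Aph1a in the complex, gave 43.7, 39.3 and 53.7 against 54.1, 62.2 and 49.8, a difference of 0.22 (interval -0.21 to 0.64). In both genes the groups overlapped. Of the beta-site list, Ctsb, a lysosomal cysteine protease, had -0.02 (interval -0.50 to 0.47) and Bace2, the homologue of Bace1, -0.03 (interval -1.12 to 1.05).

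Genes of precursor trafficking had a median of -0.17, with 4 of 10 higher and 6 lower. Gga1, a sorting adaptor that binds Bace1, ran from 30.6 to 60.1 in wild-type, against 6.68 to 28.6 in Dap12-deficient cultures, all lower without overlap, with a difference of -0.93 on the log2 scale (SE 0.28, limma adjusted p = 0.336). The probe set is of a type that can bind transcripts of more than 1 gene. Vps26a, a subunit of the retromer that returns cargo from endosomes, gave 2056, 1656 and 2013 against 3023, 2298 and 2419, all higher without overlap, with a difference of 0.43 (SE 0.18, limma adjusted p = 0.453).

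Relatives and regulators of the alpha-secretases had a median of -0.08, with 5 of 12 higher and 7 lower. Rhbdf2 encodes iRhom2, which carries Adam17 to the cell surface in myeloid cells. It gave 3.33, 61.5 and 44.8 in wild-type, against 92.0, 59.1 and 92.1 in Dap12-deficient cultures, so that the low wild-type array 1 widened the difference of 1.09 (SE 0.43, limma adjusted p = 0.421) and Dap12-deficient array 2 lay below wild-type array 2. Tspan17, a tetraspanin of the group that binds Adam10, gave 43.2, 33.3 and 51.9 against 24.4, 29.3 and 25.8 on its brightest set, all lower without overlap, with -0.46 (SE 0.19, limma adjusted p = 0.448). The other Tspan17 set gave 21.6, 27.7 and 35.5 against 24.2, 21.3 and 26.5, with overlapping groups. Its log2 difference was -0.14 (SE 0.19, limma adjusted p = 0.829).

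Proteins shed by Adam10 or Adam17 had a median of 0.04, with 7 of 12 higher and 5 lower. Tnf gave 262, 333 and 167 in wild-type, against 309, 363 and 781 in Dap12-deficient cultures, where array 1 lay below wild-type array 2 and array 3 stood above all others (log2 difference 0.82, SE 0.35, limma adjusted p = 0.444). Trem2 gave 634, 658 and 503 against 322, 513 and 455 on its brighter set, with Dap12-deficient array 2 just above wild-type array 3 (-0.48, SE 0.22, limma adjusted p = 0.482). A dim Trem2 set had 0.43.

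Other degrading enzymes and their inhibitors had a median of -0.05, with 5 of 12 higher and 7 lower. Cst3, the secreted inhibitor cystatin C that binds amyloid beta, gave 5366, 7411 and 5432 in wild-type, against 4036, 5472 and 4515 in Dap12-deficient cultures, with array 2 of the Dap12-deficient group inside the wild-type range (-0.37, interval -0.80 to 0.05). Mmp14, a membrane-bound matrix metalloproteinase, gave 148, 223 and 120 against 221, 212 and 226 (0.43, interval -0.08 to 0.94), with wild-type array 2 among the Dap12-deficient values.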

How the data were processed

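Total RNA was extracted with Trizol and RNeasy and amplified in a pair of cycles with biotin label, per the labels' protocols. The authors deposited a linear intensity per probe set, made with GCOS (no version) per the submitters' processing notes, whose settings the sources used here do not give. On each array the mean after leaving out the lowest and highest 2% was 100.0, so arrays had been scaled to 1 target. Amplification of this kind shortens copies, so probe sets far from the 3' end can be dim. Arrays carry no sequencing depth, and their number limits the precision.

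Groups came from the labels and replicate numbers from the order of deposit, so the numbers cannot pair arrays. The table held 45101 probe sets, 64 of them controls that were set aside, and no probe set had equal values on 2 arrays. Tests used limma 3.58.1 in R 4.3.3 with an intensity trend, two-sided, on log2(signal + 16). The members and lists were chosen with earlier results of these data known. Named beside the members were Tyrobp, the 2 genes of each list with the smallest p, and the 3 genes most like App; Csf1r, Aif1 and C1qa were picked from the marker list. The RefSeq gene table of GRCm38.p6 served to update older symbols and for gene order. On simulated data with 27022 probe sets, the fit recovered 28.2% of changes of log2 1, 64.4% of 1.5, 87.4% of 2 and 98.2% of 3. Each of 10 runs held 200 changed probe sets and noise drawn independently for each array and probe set. The measured data gave only 2 calls, which makes the adjusted threshold stricter, so these shares may be too high for them. Plots were drawn with matplotlib 3.10.9.

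Alternatives changed the pseudocount (1, 64), the scaling (quantiles, cyclic loess, a common median), the filter (none, 60th percentile), the variance prior (no trend, robust) and the arrays' weights, and added a term for titles with 1 number or 2 joined numbers. Each array was also left out in turn, and so, chosen after seeing the data, were probe sets of suffix _x_at or _s_at.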

Additional observations from a re-analysis of the deposited data

How the results depend on the processing

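No member passed the threshold under any of the 18 alternatives, with the smallest adjusted p, always that of Adam17 1421859_at, between 0.0937 and 0.693. Over all probe sets the count of 2 became 5 with a common median, 4 with array weights and 2 to 172 when single arrays were left out. The count of 3 members without overlap ranged from 3 to 9 when single arrays were left out, which by construction leaves fewer arrays to overlap, and the share over all tested probe sets went from 16.5% to between 24.4% and 31.2%. Because no member passed in any setting, every change of sign had to fall on a probe set not past the threshold. The cause of these changes was not tested. With a common median the log2 difference became -0.19 for App 1420621_a_at, -0.042, -0.078 and -0.13 for Aplp2 1423739_x_at, 1421887_a_at and 1432344_a_at, -0.13 for Bace1 1421825_at, -0.10 for Ncstn 1418570_at, -0.11 for Adam10 1428103_at, -0.034 for Adam17 1421858_at and -0.024 for Ide 1423120_at. With array weights it became -0.043 for App 1420621_a_at and -0.040 for Bace1 1421825_at. With quantile normalization and cyclic loess it became -0.11 and -0.10 for Bace1 1421825_at and -0.083 and -0.065 for Ncstn 1418570_at. Bace1 1455826_a_at turned to 0.024 with a pseudocount of 64 and 0.016 with cyclic loess. Without single arrays the ranges that crossed 0 were -0.15 to 0.19 for App 1420621_a_at, -0.22 to 0.56 for Aplp2 1432344_a_at, -0.30 to 0.18 for Aplp2 1421888_x_at, -0.40 to 0.40 for Bace1 1455826_a_at, -0.074 to 0.059 for Bace1 1421825_at, -0.24 to 0.34 for Ncstn 1418570_at, -0.13 to 0.076 for Aph1a 1451554_a_at, -0.16 to 0.15 for Aph1a 1424979_at, -0.049 to 0.30 for Adam10 1428103_at, -0.13 to 0.93 for Adam10 1450105_at and -0.13 to 0.38 for Ide 1453988_a_at. No paired analysis was possible because the labels give the groups no shared replicate numbers.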
